A study of Mus musculus with 6 samples.

Results

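The genes described here are 42 cell cycle and proliferation genes, chosen by gene symbol for known roles in DNA replication and mitosis. The choice was made with earlier results of these data known. All 42 were found among the 17778 gene symbols with an expression value in the colon of mice prone (OP) or resistant (OR) to obesity. Both groups were wild-type C57BL/6J mice fed a high-fat diet, and the study's methods describe male mice fed a diet with 60% fat for 16 weeks and sampled at 21 weeks of age. The groups shared diet and genotype. OP and OR were named afterwards from weight gain, as the 10 highest and the 10 lowest of 42 mice on the diet, and colon RNA of 3 OP and 3 OR samples was sequenced. The labels number the samples of each group from 1 to 3 and do not say whether tissue was pooled, so each sample is treated here as 1 mouse. No mice on a normal diet were among these samples. The unit is FPKM, a fragment count scaled to transcript length and to the size of the library, so that levels of genes can be compared within a mouse.

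The colon lining is renewed throughout life by stem cells at the base of the crypts and by the dividing cells just above them, which stop dividing as they move toward the surface. A dividing cell loads the MCM helicase onto its DNA in the first gap phase, copies the DNA in S phase, and then turns on a second set of genes that condense, align and separate the chromosomes in mitosis. The first set is commonly switched on by E2F factors. Many genes of the second set carry a CCAAT box, bound by NF-Y, and a short element named CHR, the cell cycle genes homology region, in their promoters. Lymphocytes, fibroblasts and endothelial cells that divide use the same genes, so whole-tissue RNA does not show which cells a transcript came from.

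The promoter letters of both sets are shown first because the genes are grouped by these sets. Each stretch is the 160 bases just before the RefSeq transcript start in build GRCm38.p6, written 5′ to 3′ on the strand of the gene. Capitals mark CCAAT boxes (CCAAT), CHR letters (TTTGAA or TTCGAA) and E2F letters (TTTCCCGC, TTTGGCGC or TTTCGCGC) on either strand, and adjoining or overlapping E2F matches run together. *Ube2c*, *Cdc20* and *Top2a* act late in the cycle, and *Mcm6*, *Mcm5* and *Pcna* act in DNA replication.
Ube2c, chr2:164769769-164769928, plus strand: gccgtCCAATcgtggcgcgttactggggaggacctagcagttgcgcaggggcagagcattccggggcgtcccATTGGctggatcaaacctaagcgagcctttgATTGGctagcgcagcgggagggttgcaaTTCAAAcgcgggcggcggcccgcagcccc
Cdc20, chr4:118437344-118437503, minus strand: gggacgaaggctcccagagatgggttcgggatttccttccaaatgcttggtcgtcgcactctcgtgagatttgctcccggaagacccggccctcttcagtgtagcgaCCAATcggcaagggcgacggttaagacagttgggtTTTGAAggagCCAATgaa
Top2a, chr11:99024190-99024349, minus strand: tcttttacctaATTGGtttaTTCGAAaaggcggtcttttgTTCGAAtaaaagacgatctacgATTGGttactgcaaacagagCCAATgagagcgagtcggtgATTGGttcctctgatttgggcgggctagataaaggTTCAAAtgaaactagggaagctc
Mcm6, chr1:128359706-128359865, minus strand: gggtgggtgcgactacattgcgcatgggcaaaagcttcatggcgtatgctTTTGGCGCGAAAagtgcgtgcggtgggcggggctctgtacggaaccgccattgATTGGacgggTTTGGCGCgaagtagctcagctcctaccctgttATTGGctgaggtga
Mcm5, chr8:75109349-75109508, plus strand: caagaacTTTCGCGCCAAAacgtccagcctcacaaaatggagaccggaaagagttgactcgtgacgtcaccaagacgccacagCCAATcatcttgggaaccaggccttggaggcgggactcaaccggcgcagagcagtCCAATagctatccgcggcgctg
Pcna, chr2:132253181-132253340, minus strand: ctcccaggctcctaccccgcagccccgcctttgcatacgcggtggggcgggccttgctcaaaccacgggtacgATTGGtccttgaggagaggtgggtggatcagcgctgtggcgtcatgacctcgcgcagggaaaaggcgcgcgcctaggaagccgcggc

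RefSeq windows of 250 bases before to 50 bases after the start were matched by symbol to 33 of the 42 genes, in 34 windows. Among 16 windows of genes of mitotic entry, the checkpoint, the kinetochore and the spindle, 14 held CCAAT, 12 held CHR letters and 1 held E2F letters. Among 10 windows of DNA replication genes, 8 held CCAAT, 3 held CHR letters and 6 held E2F letters. The 3 windows of nucleotide supply genes held CCAAT in 2 and neither of the other motifs, and the 3 windows of cyclins and factors held none of the motifs. Over all 32851 promoter windows the shares were 37.4% for CCAAT, 19.2% for CHR letters and 1.84% for E2F letters. A match of these letters is a description of the sequence and not evidence of binding.

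OP mouse 1 stood apart before any gene was compared. The median FPKM over all 17778 genes was 3.55 in OP mouse 1 and between 4.895 and 5.76 in the other mice, and the 10 highest genes took 9.88% of its FPKM total, against 6.48% to 8.77% in the others. *Cdx1* and *Cdx2*, transcription factors that mark intestinal epithelium, had between 147 and 246 FPKM in every mouse. *Hoxb13*, a gene of the hindgut end, was 46.9 FPKM in OP mouse 2 and at most 1.29 in the others, so the pieces of colon were not alike in this marker. Genes with at least 0.5 FPKM in at least 3 mice were tested, 13520 genes in all, and all 42 cell cycle genes passed that filter.

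All 42 genes had a lower mean log2 expression in OP mice than in OR mice, where 70.1% of all genes tested did. None of the 42 passed the test over all genes, where the lowest Benjamini-Hochberg adjusted p of limma-trend among them was 0.945. The median log2 fold change OP/OR of the 42 genes was -0.38, and that of all genes tested was -0.10. With the cutoffs the study used, a q-value below 0.2 together with a fold of 0.83 or less or of 1.2 or more, 0 of the 42 genes were called lower, where 0.0222% of all genes were, and 0 were called higher, where 0% were. The study applied these cutoffs to DESeq2. It reported more genes in each direction than the 3 lower and 0 higher that limma-trend called here over all genes. At an unadjusted p below 0.05, 2 genes were lower, *Ube2c* and *Aurka*, where 3.53% of all genes were, and 0 were higher, where 0.503% were. In 0 of the 42 genes did every OP mouse lie below every OR mouse, which 6.81% of all genes did, and in 0 did every OP mouse lie above, which 1.63% did. A fold of at most 0.83 was found in 29 of the 42 genes, where 22.7% of all genes had one, and a fold of at least 1.2 in 0, where 5.69% had one. The genes thus shared a direction of their means, and the OP and OR mice overlapped in each of them.

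The overlap came from the order of the single mice. OP mouse 1 had the lowest value in 38 of the 42 genes, where it was lowest in 54.1% of all genes. OP mouse 2 was above at least 1 OR mouse in each of the 42 genes and was the highest mouse of all in 5. OR mouse 1 was highest in 20 genes and OR mouse 2 in 15, against 22% and 7.66% of all genes. In bulk tissue, fewer dividing cells and less RNA per dividing cell cannot be told apart.

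**Figure D1:**
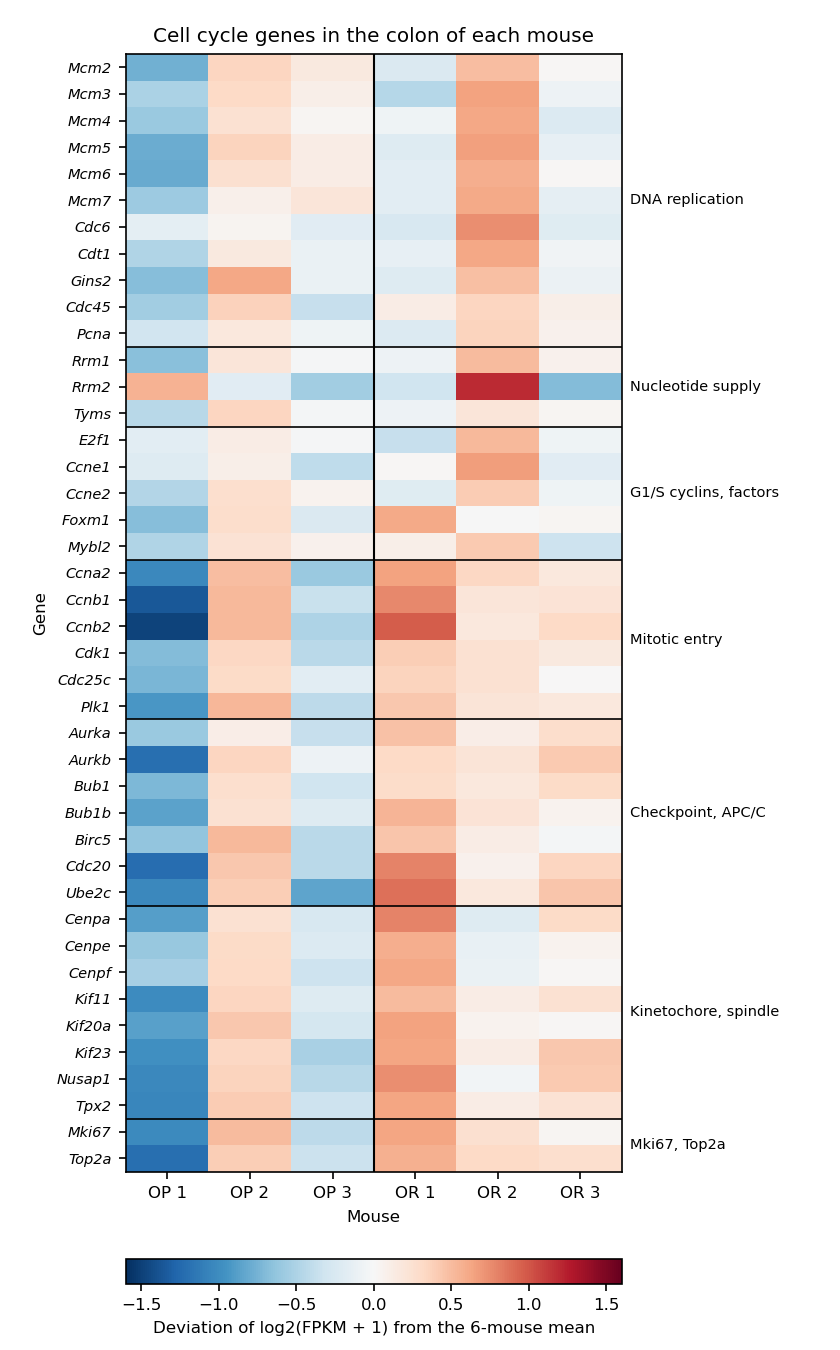
Heatmap of the 42 genes (rows, ordered by role) in each mouse (columns), coloured by the deviation of log2(FPKM + 1) from the mean of the 6 mice. OP mouse 1 is the lowest mouse in 38 rows, OR mouse 2 leads most of the replication rows, and OR mouse 1 leads most of the mitotic rows.

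The 2 leading mice divided the genes by phase. Of the 21 genes of mitotic entry, the checkpoint, the kinetochore and the spindle, OR mouse 1 was highest in 17 and OR mouse 2 in 0. Of the 11 replication genes, OR mouse 2 was highest in 9 and OR mouse 1 in 0. Averaged over the 21 mitotic genes, the deviation of log2(FPKM + 1) from the mean of the 6 mice was -0.92, 0.37 and -0.37 in OP mice 1, 2 and 3 and 0.59, 0.11 and 0.22 in OR mice 1, 2 and 3. Averaged over the 11 replication genes it was -0.57, 0.27 and -0.01 in OP mice against -0.18, 0.56 and -0.07 in OR mice. Over all genes tested the mean deviation was -0.24 in OP mouse 1 and between -0.03 and 0.11 in the others. OR mouse 1 was thus high in these 21 mitotic genes and low in these 11 replication genes at the same time. The summed FPKM of the 21 mitotic genes divided by that of the 11 replication genes was 0.367, 0.699 and 0.412 in OP mice against 1.17, 0.469 and 0.744 in OR mice. This ratio overlapped between the groups, since OP mouse 2 was above OR mouse 2.

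**Figure D2:**
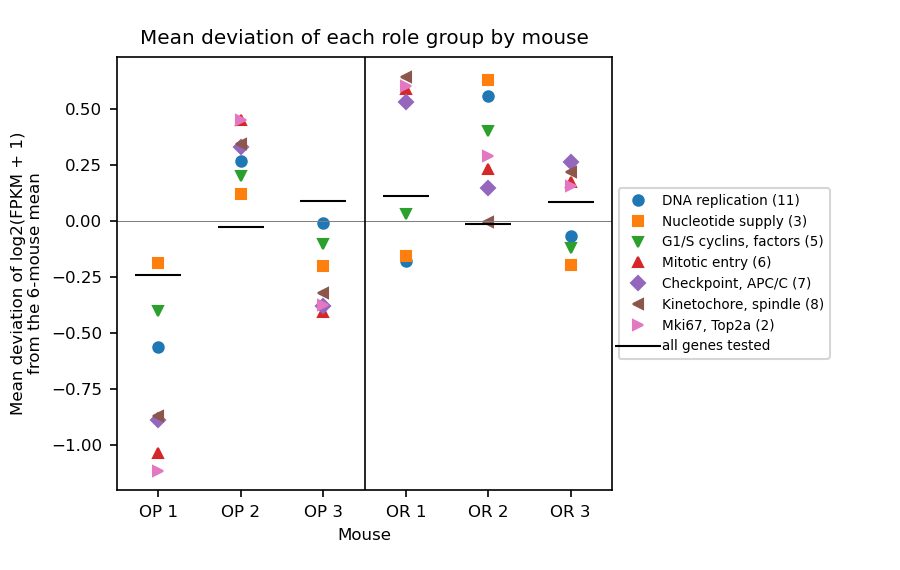
Mean deviation of log2(FPKM + 1) from the mean of the 6 mice (y axis) for each role group, with its number of genes in brackets, by mouse (x axis); the black bars give all genes tested. In OR mouse 1 the mitotic groups lie above 0.5 and the replication group at -0.18, and in OR mouse 2 the replication group lies at 0.56.

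*Mki67* and *Top2a* are the genes most used to count dividing cells. *Mki67* encodes Ki-67, a protein of dividing nuclei, and *Top2a* encodes the topoisomerase that untangles chromosomes before they part. *Mki67* had 3.99, 13.48 and 6.62 FPKM in OP mice against 14.77, 11.16 and 9.38 in OR mice, each given in the order of mice 1, 2 and 3, as for every gene. OP mouse 2 was above OR mice 2 and 3, so the groups overlapped. The means were 8.03 ± 4.90 FPKM (SD, n = 3) in OP mice and 11.8 ± 2.75 FPKM (SD, n = 3) in OR mice. The log2 fold change was -0.62 with a standard error of 0.38 and a 95% interval from -1.51 to 0.28 (adjusted p = 0.945, limma-trend). *Top2a* had 4.23, 14.82 and 8.52 FPKM in OP mice against 16.90, 14 and 13.59 in OR mice. The log2 fold change of *Top2a* was -0.77 with a standard error of 0.37 and a 95% interval from -1.65 to 0.10. In both genes OP mouse 1 was lowest and OP mouse 3 second lowest.

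**Figure D3:**
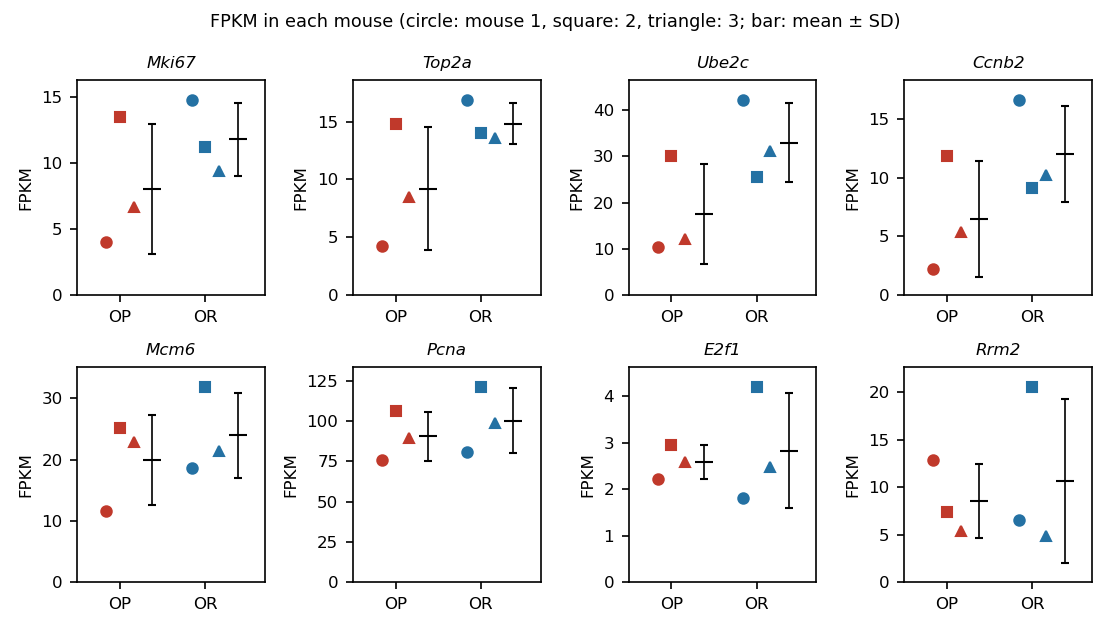
FPKM (y axes, from 0) of 8 genes in each of the 3 OP mice (red) and 3 OR mice (blue), with the mean and SD of each group in black; the symbol gives the mouse number. In all 8 genes the groups overlap, and *Rrm2* is the gene in which OP mouse 1 is the second highest mouse.

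Across the 11 replication genes the median log2 fold change was -0.20, from -0.37 in *Cdc45* to -0.06 in *Mcm3*, and 0 of the 11 passed an unadjusted p of 0.05. *Mcm2* to *Mcm7* encode the 6 subunits of the MCM helicase ring, which opens the DNA. *Mcm6* had 11.65, 25.24 and 22.94 FPKM in OP mice against 18.70, 31.87 and 21.36 in OR mice. *Mcm5* had 5.14, 12.62 and 10.52 FPKM in OP mice against 8.23, 15.83 and 8.73 in OR mice. In both genes OP mice 2 and 3 lay among the OR mice, and OP mouse 1 lay below all of them. *Mcm3* had 7.56, 14.19 and 12.03 FPKM in OP mice against 7.87, 17.99 and 10.47 in OR mice. In *Mcm3* OR mouse 1 was as low as OP mouse 1, within 0.31 FPKM, and the 95% interval of the log2 fold change ran from -0.84 to 0.71. *Mcm2*, *Mcm4* and *Mcm7* had means of 10.1, 8.22 and 19.9 FPKM in OP mice and of 11.2, 9.76 and 23.2 FPKM in OR mice. All 6 helicase subunits were highest in OR mouse 2 and lowest in OP mouse 1.

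*Cdc45* and *Gins2*, whose proteins join the MCM ring to form the active helicase, were highest in OP mouse 2. *Cdc45* had 2.21, 5.07 and 2.66 FPKM in OP mice against 4.14, 4.99 and 4.02 in OR mice, with a 95% interval of the log2 fold change from -1.0 to 0.26. *Gins2* had 4.22, 11.79 and 6.75 FPKM in OP mice against 6.24, 10.69 and 6.82 in OR mice. *Cdc6* and *Cdt1* encode the proteins that load the ring onto DNA. *Cdc6* had 1.65, 2.03 and 1.61 FPKM in OP mice against 1.47, 3.95 and 1.57 in OR mice, so that 5 of the mice were nearly level and OR mouse 2 stood above them. *Cdt1* had 5.46, 9.09 and 7.44 FPKM in OP mice against 7.28, 12.86 and 7.71 in OR mice. *Pcna*, the sliding clamp of the DNA polymerases, was the most highly expressed of the 42 genes in every mouse. Its values were 75.94, 106.11 and 89.70 FPKM in OP mice against 80.73, 121.18 and 98.70 in OR mice. For *Pcna* the log2 fold change was -0.14 with a 95% interval from -0.58 to 0.31, the narrowest of the 42 genes.

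The 3 genes of nucleotide supply did not follow one pattern. *Rrm1* and *Rrm2* encode the large and the small subunit of ribonucleotide reductase, which makes the building blocks of DNA, and *Tyms* encodes thymidylate synthase. *Rrm1* had 6.74, 13.13 and 11.22 FPKM in OP mice against 10.64, 16.48 and 11.97 in OR mice, highest in OR mouse 2 and lowest in OP mouse 1 as in the helicase genes. The log2 fold change of *Rrm1* was -0.33 with a 95% interval from -0.96 to 0.31. *Rrm2* had 12.88, 7.36 and 5.43 FPKM in OP mice against 6.59, 20.54 and 4.85 in OR mice. *Rrm2* was high in OP mouse 1 and OR mouse 2 and below 7.5 FPKM in the other mice, and it was the only one of the 42 genes in which OP mouse 1 was the highest OP mouse. *Tyms* had 3.43, 6.63 and 4.88 FPKM in OP mice against 4.72, 5.90 and 5.15 in OR mice, with a log2 fold change of -0.10.

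The 5 cyclins and transcription factors of the passage into S phase and of the late cycle had log2 fold changes with a median of -0.12. *E2f1*, an E2F factor that switches on replication genes, had 2.23, 2.95 and 2.59 FPKM in OP mice against 1.81, 4.2 and 2.47 in OR mice. Its log2 fold change of -0.05 was the nearest to 0 of the 42 genes, with a 95% interval from -0.65 to 0.55. *Ccne1* and *Ccne2* encode the E cyclins, which start S phase. *Ccne1* had 2.49, 3.31 and 2.05 FPKM in OP mice against 3.09, 5.43 and 2.55 in OR mice, and *Ccne2* had means of 2.49 FPKM in OP mice and 2.71 FPKM in OR mice. *Mybl2*, a factor that acts with the MuvB complex, had means of 2.77 FPKM in OP mice and 3.11 FPKM in OR mice. *Foxm1*, the factor that drives late cell cycle genes, had 1.14, 3.15 and 1.93 FPKM in OP mice against 4.21, 2.40 and 2.5 in OR mice. *Foxm1* was the only one of the 5 that was highest in OR mouse 1, the mouse that led the mitotic genes. Its log2 fold change was -0.42 with a 95% interval from -1.11 to 0.28.

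For the 6 genes of mitotic entry the median log2 fold change was -0.65. *Cdk1* encodes the kinase that starts mitosis, the A and B cyclins bind and activate such kinases, *Cdc25c* encodes a phosphatase that releases the kinase, and *Plk1* encodes polo-like kinase. *Ccnb2* had 2.23, 11.90 and 5.42 FPKM in OP mice against 16.67, 9.12 and 10.27 in OR mice. OR mouse 1 was highest, OP mouse 2 second and OP mouse 1 lowest. For *Ccnb2* the log2 fold change was -0.97 with a standard error of 0.49 and a 95% interval from -2.11 to 0.17. *Ccnb1* had 1.18, 7 and 3.36 FPKM in OP mice against 8.46, 5.35 and 5.49 in OR mice, and *Ccna2* had 3.62, 12.24 and 5.24 FPKM in OP mice against 13.69, 10.84 and 9.59 in OR mice. *Cdk1* had 1.81, 4.72 and 2.36 FPKM in OP mice against 4.93, 4.36 and 4.05 in OR mice. *Plk1* differed from these in that OP mouse 2 was highest, with 7.67 FPKM against 7.03 in OR mouse 1. *Cdc25c* was low throughout, from 0.22 FPKM in OP mouse 1 to 1.58 FPKM in OR mouse 1, and its log2 fold change was -0.40 on a scale that understates the change of low genes.

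The 7 genes of the spindle checkpoint, the chromosomal passenger complex and the anaphase-promoting complex had log2 fold changes with a median of -0.57. *Ube2c* encodes the ubiquitin-conjugating enzyme of the anaphase-promoting complex and *Cdc20* its activator. *Ube2c* had 10.51, 29.98 and 12.16 FPKM in OP mice against 42.28, 25.46 and 31.10 in OR mice. OP mice 1 and 3 lay below every OR mouse, and OP mouse 2 lay above OR mouse 2. The means were 17.6 ± 10.8 FPKM (SD, n = 3) and 32.9 ± 8.56 FPKM (SD, n = 3), so that the mean of OR mice was 1.88 times that of OP mice. The log2 fold change was -0.99, the lowest of the 42 genes, with a standard error of 0.38 and a 95% interval from -1.88 to -0.10. The unadjusted limma-trend p was 0.0344 and the adjusted p was 0.945, and the two-sided exact permutation test gave p = 0.2, where 0.1 is the smallest p possible with 3 mice against 3. *Cdc20* had 2.96, 11.40 and 5.83 FPKM in OP mice against 14.85, 8.63 and 10.68 in OR mice.

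*Aurka*, the Aurora kinase of the spindle poles, had 2.92, 5.36 and 3.57 FPKM in OP mice against 7.17, 5.34 and 6.20 in OR mice. Its groups came close to separation, since OP mouse 2 was above OR mouse 2 by only 0.02 FPKM. The log2 fold change was -0.57 with a standard error of 0.23, an unadjusted limma-trend p of 0.0432 and an adjusted p of 0.945. *Aurkb* and *Birc5* encode a kinase and a subunit of the chromosomal passenger complex. *Aurkb* had 1.64, 6.75 and 4.78 FPKM in OP mice against 6.57, 6.00 and 7.15 in OR mice, where OR mouse 3 was highest. *Birc5* had 8.08, 19.14 and 9.43 FPKM in OP mice against 18.08, 14.20 and 12.69 in OR mice, with the log2 fold change nearest to 0 of the 7 genes, -0.35. *Bub1* and *Bub1b* encode checkpoint kinases that hold back anaphase. *Bub1* had 0.44, 1.85 and 0.89 FPKM in OP mice against 1.90, 1.65 and 1.93 in OR mice, and *Bub1b* had means of 3.42 FPKM in OP mice and 5.2 FPKM in OR mice.

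The 8 kinetochore and spindle genes had log2 fold changes with a median of -0.59. In all 8 OR mouse 1 was the highest mouse and OP mouse 1 the lowest. *Kif23*, a motor protein of the central spindle needed to part the daughter cells, had 2.20, 6.95 and 3.40 FPKM in OP mice against 8.79, 5.87 and 7.50 in OR mice. For *Kif23* the log2 fold change was -0.78, the lowest of the 8, with a standard error of 0.34 and a 95% interval from -1.59 to 0.02. *Nusap1* and *Tpx2* encode proteins that build spindle microtubules. *Nusap1* had 1.25, 4.86 and 2.37 FPKM in OP mice against 6.71, 3.46 and 5.17 in OR mice, and *Tpx2* had 1.12, 4.78 and 2.46 FPKM in OP mice against 5.76, 3.73 and 4.14 in OR mice. *Cenpa*, the histone variant that marks the centromere, had 3.17, 8.09 and 5.47 FPKM in OP mice against 12.35, 5.68 and 8.5 in OR mice. In *Cenpa* OP mouse 2 was again above OR mouse 2. The centromere proteins *Cenpe* and *Cenpf* and the spindle motors *Kif11* and *Kif20a* had log2 fold changes between -0.58 and -0.34, and that of *Cenpe*, the nearest to 0, had a 95% interval from -1.03 to 0.34.

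The differences depended on single mice. Without OP mouse 1, 31 of the 42 genes had a log2 fold change below 0, where 52.6% of all genes did, and the median of the 42 genes was -0.18. The phases then differed in their signs. All 21 mitotic genes were still below 0, with a median of -0.29, while 4 of the 11 replication genes were below 0, with a median of 0.04. The mean of *Mcm6* in OR mice was 1.2 times that of the 3 OP mice and 0.995 times that of OP mice 2 and 3, and for *Ube2c* these ratios were 1.88 and 1.56. Without OP mouse 2, the OP mouse with the highest mean deviation, 22 of the 42 genes were lower at an unadjusted p below 0.05, where 4.59% of all genes were, with a lowest adjusted p of 0.746. With each of the other mice left out in turn the count was 0 or 1. It was 0 without OP mouse 1, where 2.3% of all genes were lower, 0 without OP mouse 3, where 8.2% were, 0 without OR mouse 1, where 2.07% were, 0 without OR mouse 3, where 1.67% were, and 1 without OR mouse 2, where 3.82% were. Without OR mouse 2, the median of the replication genes was 0.03 and 30 of the 42 genes were below 0, where 72.7% of all genes were. Median-of-ratios scaling, which raised the values of OP mouse 1 with a size factor of 0.802, moved the median of all genes from -0.10 to 0.01 and that of the 42 genes from -0.38 to -0.31. Under that scaling 38 of the 42 genes were below 0, where 48% of all genes were, and the 4 above 0 were *Mcm3*, *Rrm2*, *Tyms* and *E2f1*. With the scaling, 1 gene was lower at an unadjusted p below 0.05, where 3.13% of all genes were. With that scaling and OP mouse 1 left out, an alternative chosen after seeing the data, the count was 0, where 2.6% of all genes were, and with sample weights it was 0, where 4.85% were.

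**Figure D4:**
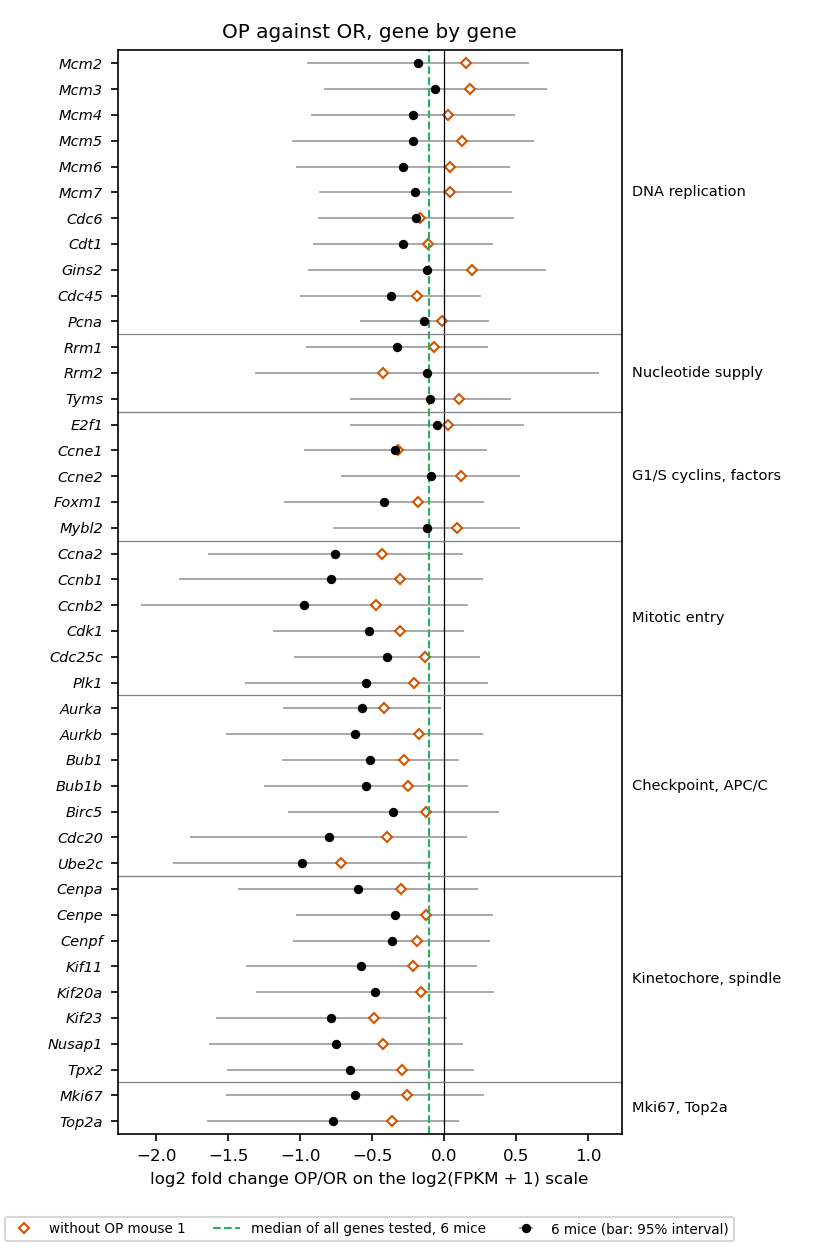
The log2 fold change OP/OR on the log2(FPKM + 1) scale (x axis) of each gene (rows, ordered by role) with its 95% interval from limma-trend over 6 mice, and the value without OP mouse 1 as an open diamond. All 42 black points lie below 0, 2 intervals exclude 0, and without OP mouse 1 the mitotic genes stay below 0 while 7 of the 11 replication genes move above it.

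A further 91 cell cycle genes outside the 42 were listed by role. Of these, 89 passed the filter and 79 had a log2 fold change below 0, where 70.1% of all genes did. At an unadjusted p below 0.05, 5 were lower, where 3.53% of all genes were, and 0 were higher, where 0.503% were. With median-of-ratios scaling 66 were below 0 and 23 above, and 5 were lower and 1 higher at that p, where 3.13% and 1.13% of all genes were. None passed a q-value of 0.2 (limma-trend, Benjamini-Hochberg adjustment over all genes). The 5 were *Ccnd2*, *Nek2*, *Pbk*, *Cdca3* and *Ccnf*. *Ccnd2*, a D cyclin of the first gap phase, had 11.88, 32.11 and 15.89 FPKM in OP mice against 37.13, 34.91 and 36.13 in OR mice. Each OP mouse lay under each OR mouse, with a log2 fold change of -0.94 and an unadjusted p of 0.0208. *Nek2*, a centrosome kinase, had 2.23, 4.61 and 2.42 FPKM in OP mice against 5.37, 5.42 and 4.85 in OR mice, again without overlap. *Ccnf*, the cyclin that serves as an F-box protein, had a log2 fold change of -0.50 without overlap, while *Pbk* and *Cdca3* had -0.71 and -0.89 with overlap. In 6 of the 89 genes every OP mouse lay below every OR mouse, where 6.81% of all genes did. In 0 did every OP mouse lie above, where 1.63% of all genes did. Without OP mouse 1, 0 of the 89 genes had an unadjusted p below 0.05, where 2.3% of all genes were lower and 0.721% higher.

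The order of the mice in the further genes was less uniform, and the difference between phases was not tested. Of 38 further mitosis genes, OR mouse 1 was highest in 20, OP mouse 2 in 9 and OR mouse 2 in 8, where OR mouse 1 was highest in 22% of all genes and OR mouse 2 in 7.66%. Their median log2 fold change was -0.43, and -0.20 without OP mouse 1. Of 23 further replication genes, OR mouse 2 was highest in 14, OP mouse 2 in 7 and OR mouse 1 in 1. Their median was -0.18, and 0.02 without OP mouse 1. In OR mouse 1 the mean deviation was 0.36 over the further mitosis genes and -0.003 over the further replication genes. The 8 further cyclins and kinases of the first gap phase had a median of -0.49, and of -0.11 without OP mouse 1. For 11 further E2F and MuvB genes the median was -0.18, and -0.11 without it. *Cdk4*, a kinase of the D cyclins, had 27.68 FPKM in OP mouse 1 and between 70.85 and 74.05 FPKM in the other mice, the 2 other OP mice included.

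Markers of crypt and mature epithelial cells moved across the mice as well. The 10 crypt base genes, among them *Lgr5* and *Ascl2* of the stem cells, were all lowest in OP mouse 1, and their summed FPKM was 52.3, 177 and 173 in OP mice against 198, 123 and 206 in OR mice. Their median log2 fold change was -0.48, and without OP mouse 1 it was 0.03. *Lgr5* had 1.19, 3.26 and 5.06 FPKM in OP mice against 4.19, 3.28 and 3.19 in OR mice, and *Myc*, a target of Wnt signalling, had 6.60, 21.80 and 15.60 against 26.34, 15.83 and 32.35. The 8 colonocyte genes had a mean deviation of 1.04, 0.63 and -0.56 in OP mice against -0.70, 0.53 and -0.94 in OR mice. Of these, 7 had a log2 fold change above 0, where 70.1% of all genes were below 0. Their median was 0.48, and 0.50 without OP mouse 1. The 8 genes of all epithelium, such as *Epcam* and *Krt8*, summed to between 7090 and 10409 FPKM with overlap between the groups. The 7 goblet cell genes were below 0 in all 7, with a median of -1.21, and without OP mouse 1 in 6, with a median of -0.67. *Muc2*, the gel mucin, had 17.6 FPKM in OP mouse 1 and between 154 and 933 FPKM in the others. By mean deviation, OP mouse 1 was thus lowest in the crypt base and goblet lists and over the 42 genes, and highest in the colonocyte list. OP mouse 1 was also lowest in lists outside the epithelium, at -0.70 for T cells and -0.30 for neurons and glia. Gene by gene, it was the highest mouse in 3 of the 8 colonocyte genes, and so was OP mouse 2.

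Markers of other cells that could divide in the tissue had orders of mice that differed between the lists. The 8 B and plasma cell genes summed to 61.5, 50.3 and 174 FPKM in OP mice against 139, 145 and 167 in OR mice. Of the 5 germinal centre genes, the 3 that passed the filter had a median log2 fold change of -0.05, and of 0.06 without OP mouse 1, and *Mef2b* was at or below 0.56 FPKM in every mouse. The 7 T cell genes summed to 10.9, 16.3 and 39.7 FPKM in OP mice against 27.8, 26.8 and 30.2 in OR mice. Their mean deviation was lowest in OP mouse 1, at -0.70, as in the cell cycle genes, and highest in OP mouse 3, at 0.60. The macrophage, fibroblast and blood endothelium lists of 7, 7 and 6 genes were all below 0, with medians of -0.94, -0.89 and -0.83 and 7, 5 and 6 genes lower at an unadjusted p below 0.05, where 3.53% of all genes were, and in each of them OP mouse 2 had the lowest mean deviation. OP mouse 2 had the highest deviation of the OP mice in the cell cycle genes. The 6 smooth muscle genes, the 6 neuron and glia genes and the 5 adipocyte genes had medians of -0.35, -0.12 and -0.62. Without OP mouse 1 the medians were -0.35, 0.02 and -1.06. The last of these is over 4 adipocyte genes, since *Lep*, at 0.62 with all 6 mice, then missed the filter. The part of these cell types in the cell cycle values was not tested.

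**Figure D5:**
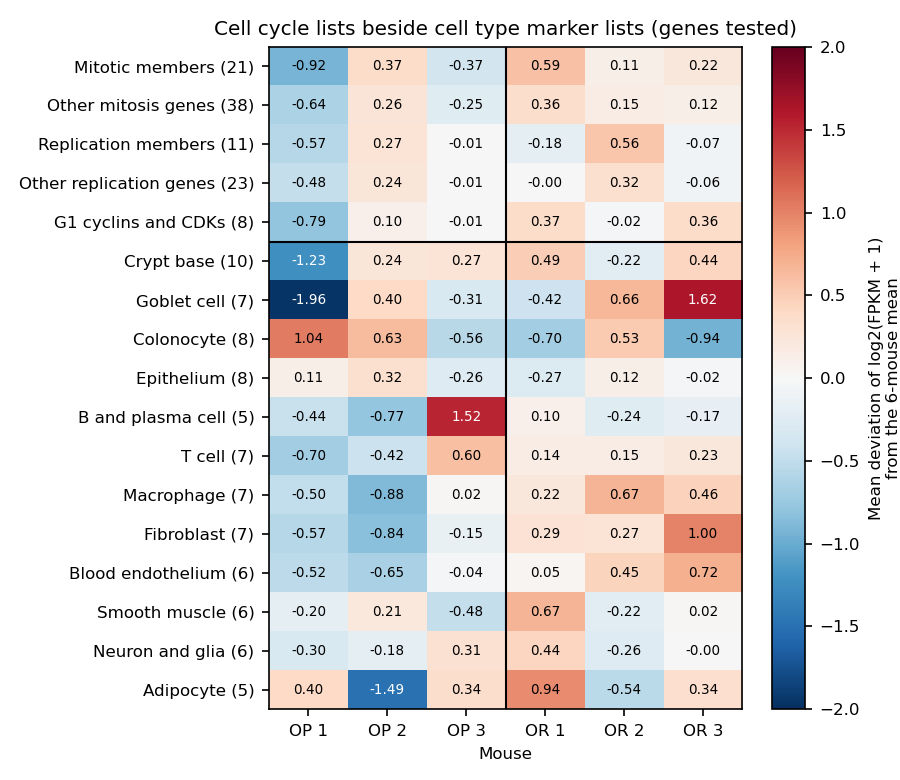
Mean deviation of log2(FPKM + 1) from the mean of the 6 mice (colour and printed value) for cell cycle lists (top) and cell type marker lists (bottom), with the number of genes tested in brackets, by mouse (columns). OP mouse 1 is lowest in the 5 cell cycle lists shown. It is also lowest in the crypt base, goblet, T cell, and neuron and glia lists, and highest in the colonocyte list at 1.04.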

How the data were processed

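Colon RNA of 3 OP and 3 OR mice was analysed from 1 table. The authors deposited FPKM values to 2 decimals. According to the methods and labels, strand-specific mRNA libraries were read on DNBSEQ, SOAPnuke removed poor reads, and Bowtie2 and RSEM gave expression against a GRCm39 gene set. Versions differ between these sources, and the submitters' processing notes also name HISAT2 2.0.4. Read totals are not part of an FPKM table. Of 128 short genes with low values, 32 to 42 were above 0 in both mice of a pair, and no step of single reads was found, so depth and counting error are unknown.

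Groups and replicate numbers came from the sample labels. The 13520 genes that reached 0.5 FPKM in at least 3 mice were put on the log2(FPKM + 1) scale, which understates changes of low genes. OP and OR were then compared with limma-trend (version 3.58.1, in R 4.3.3) with no covariate, and q-values are Benjamini-Hochberg adjusted p-values. DESeq2, the test of the study, needs counts and was not run. Single genes were compared by two-sided exact permutation tests (SciPy 1.17.1, 20 arrangements). Tested on simulated data of 13520 genes with 200 changed for this comparison, 60.5% were recovered at a log2 change of 1 and 95% at 2 with a q-value below 0.2, and 20.9% and 21.8% of calls were unchanged genes. The 42 genes and all lists were chosen with earlier results of these data known. Genes given with statistics were *Mki67*, *Top2a*, *Pcna*, those with an unadjusted p below 0.05, the highest and lowest log2 fold change of each role group, and further cell cycle genes with an unadjusted p below 0.05; other genes are described by their values. Promoter windows were taken from RefSeq (GRCm38.p6), a build other than that of the authors, and no coordinates of the expression table were used. Alternatives were another scaling, TPM, pseudocount and filters, limma without trend, sample weights, the replicate block and each mouse left out.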

Additional observations from a re-analysis of the deposited data

How the results depend on the processing

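Calls at a q-value below 0.2 were 0 in both directions among the 42 genes under every alternative run, and DESeq2 was not run. The count of genes lower at an unadjusted limma-trend p below 0.05 was 2, where 3.53% of all genes were. Median-of-ratios scaling gave 1, where 3.13% were, and sample weights gave 0, where 4.85% were. Leaving out each mouse gave 0 to 22, where 1.67% to 8.2% of all genes were. The 22 came without OP mouse 2, where 4.59% were. Testing all genes seen in at least 1 mouse gave 1. With the replicate block, the paired fit, it was 1. The share over all genes was not computed for these last 2 fits. It was 0 with median-of-ratios scaling and OP mouse 1 left out together, where 2.6% of all genes were lower, an alternative chosen after seeing the data. The numbers belong to different mice, the correlations of same-numbered mice's deviations from their group means were -0.14, -0.16 and 0.07, and 0 of 3 OP mice correlated best with the OR mouse of their own number. The medians of the 42 genes and of each role group moved by less than the spread between mice, and with each mouse left out that of the 42 genes ranged from -0.65 to -0.18. The medians of the replication genes, the cyclins and factors, and the nucleotide genes changed sign with sample weights, to 0.028, 0.11 and 0.031. Those of the former groups also did so with a mouse left out, up to 0.037 and 0.059, and that of the nucleotide genes with median-of-ratios scaling, to 0.0075.

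Among the genes given with statistics, signs changed in 4, with no adjusted p below 0.2. *Pcna* was at 0.016 with sample weights and from -0.28 to 0.0077 with each mouse left out. With median-of-ratios scaling, with sample weights, and with that scaling and OP mouse 1 left out, *Tyms* was at 0.015, 0.094 and 0.12, *E2f1* at 0.046, 0.11 and 0.031, and *Mcm3* at 0.060, 0.22 and 0.19. With each mouse left out *Tyms* ranged from -0.29 to 0.10, *E2f1* from -0.25 to 0.20 and *Mcm3* from -0.31 to 0.24; *Tyms*, *E2f1* and *Mcm3* were above 0 without OP replicate 1 (0.10, 0.025 and 0.18), and *Pcna*, *E2f1* and *Mcm3* without OR replicate 2 (0.0077, 0.20 and 0.24). The causes were not tested. With 3 mice a group and unknown depth, differences within these intervals could not be resolved.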

Other observations

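Of 10 inhibitors and pocket proteins of the cell cycle listed, 9 passed the filter. Of these, 4 had a log2 fold change below 0 and 5 above, with a median of 0.07, where 70.1% of all genes were below 0. At an unadjusted p below 0.05 by limma-trend 0 were lower and 0 higher, where 3.53% and 0.503% of all genes were. With median-of-ratios scaling 1 was below 0 and 8 above, with a median of 0.21, where 48% of all genes were below 0. With it 1 was higher at an unadjusted p below 0.05, where 1.13% of all genes were. This was *Cdkn2b*, named after its values were seen. OP mouse 3 was the highest mouse in 8 of the 10, among them *Cdkn2a*, which was at most 0.2 FPKM and not tested. The share of all genes highest in OP mouse 3 was not computed. *Cdkn2b*, an inhibitor of the D cyclin kinases, had 39.69, 44.29 and 79.36 FPKM in OP mice against 49.70, 27.24 and 33.58 in OR mice. *Cdkn1a*, the inhibitor p21, had 217.30, 246.66 and 119.44 FPKM in OP mice against 142.74, 201.97 and 190.72 in OR mice, so it was lowest in OP mouse 3.

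*Rrm2* was high in OP mouse 1 and OR mouse 2, mice of different groups. The following genes were picked from the marker lists after their values had been seen. *Car1*, a carbonic anhydrase of colonocytes, had 14584 and 15723 FPKM in these same mice and between 1054 and 6339 FPKM in the others. *Slc37a2*, a sugar phosphate transporter, had 29.0 and 34.0 FPKM in them and between 0.39 and 1.58 FPKM in the others.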
